A study of Mus musculus with 23 samples.

Results

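Amino acids that are not used for protein are broken down mainly in the liver. Transaminases and dehydrogenases strip off the amino group, the carbon skeletons enter central metabolism, and the freed ammonia is turned into urea by the urea cycle of periportal hepatocytes. Many of these enzymes are known to be set by feeding, glucagon, glucocorticoids and the hepatic transcription factors that act with them. Described here are 37 genes of these routes: 6 of the urea cycle, 5 that handle glutamine, glutamate and the transaminase reactions, 7 of histidine, serine, glycine and glyoxylate breakdown, 3 of tyrosine breakdown, 5 of the tryptophan and kynurenine route, 6 of branched chain amino acid, lysine and proline breakdown, and 5 of methionine, methyl group and transsulfuration metabolism. The genes were chosen by name, as known enzymes of these routes, with earlier results of these data known. All 37 were found on the array and all 37 passed the filter on dim probes, among 21056 genes that did. For each gene the probe with the highest mean signal was read, and 16 of the 37 genes had no other probe.

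Liver RNA of 23 male mice was hybridised, 1 array per mouse, to ask what pregnenolone 16α-carbonitrile (PCN), an agonist of the xenobiotic receptor PXR in rodents, does to hepatic transcripts with and without that receptor. The groups were WT CONT (wild-type C57BL/6J mice given corn oil, n = 6), WT PCN (wild-type mice given 100 mg/kg PCN in corn oil, n = 5), Pxr-/- CONT (mice deleted for Pxr and backcrossed to C57BL/6J, given corn oil, n = 6) and Pxr-/- PCN (the same deletion with PCN, n = 6). Mice were injected daily for 4 days and killed 6 h after the final dose. The labels call the mice fed at that point, whereas the study's text calls the time of day one of partial fasting. The WT mice were purchased at 6 weeks of age and acclimatized for 2 weeks, whereas the Pxr-/- mice were bred in the facility and their age was not given in the sources used here, and colony and genotype therefore cannot be told apart.

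Of 56605 probes, between 29510 and 33321 were well above background on an array, and 32087 were tested. Arrays were washed in 2 batches that each took 3 arrays per group, apart from WT PCN, of which batch 2 took 2. WT PCN replicate 4 was the highest of the 5 mice in 9 of the 37 members and the lowest in 17. Other arrays were often at an extreme of their group as well. Pxr-/- PCN replicate 4 was highest or lowest in 23 members, and WT CONT replicate 2 and Pxr-/- CONT replicate 2 in 20 each. The share over all probes was not counted. The probe for Nr1i2, the gene of PXR, did not separate the genotypes (Pxr-/- CONT against WT CONT -0.03 log2, adjusted p = 0.977), and whether it lies in the deleted part was not given. Cyp3a11, a classical PXR target, rose by 3.55 log2 in WT mice (adjusted p = 4.12e-10) and was at 0.31 in Pxr-/- mice (adjusted p = 0.431). Cyp2c55, another PXR target, rose by 6.26 in WT mice (adjusted p = 4.89e-14) and was at 0.54 in Pxr-/- mice (adjusted p = 0.140). Among mice given corn oil alone, Cyp2c55 was 2.80 log2 higher in Pxr-/- CONT than in WT CONT (adjusted p = 1.53e-07). Hepatocyte markers (7 of 8 listed genes kept) summed to normalized signals of 1936320 to 2202280 in WT CONT, 1969690 to 2101870 in WT PCN, 2058430 to 2134090 in Pxr-/- CONT and 2034980 to 2126690 in Pxr-/- PCN arrays, which overlapped. The normalization gave every array the same distribution of values, which limits how far sums of such bright probes can differ. The overlap therefore does not measure hepatocyte content. In whole liver, fewer cells of a type and less RNA per cell cannot be told apart. Changes below are log2 differences of normalized signal from 1 fit with limma over all arrays, ± SE, with p-values adjusted over all probes. A gene was called when the adjusted p was at most 0.05 and the fold change above 1.5, and calls at any fold are given beside these. The contrasts share arrays: the difference between genotypes uses all 4 groups and the control comparison uses both control groups.

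The upstream sequences of 2 members are shown because of their place in the results: the Gldc probe had the largest fitted difference between genotypes and the Cbs probe the largest fall in WT mice of the 37 genes. They are the 250 bases before the RefSeq start site in build GRCm38.p6, written 5′ to 3′ on the strand of the gene. Searched on both strands were the hexamers AGTTCA and AGGTCA, which are half-sites of nuclear receptors, the hexamer AGAACA of glucocorticoid response elements, and the CCAAT box. Capitals mark the matches, all of them to the CCAAT box.
Gldc, chr19:30175442-30175691, minus strand: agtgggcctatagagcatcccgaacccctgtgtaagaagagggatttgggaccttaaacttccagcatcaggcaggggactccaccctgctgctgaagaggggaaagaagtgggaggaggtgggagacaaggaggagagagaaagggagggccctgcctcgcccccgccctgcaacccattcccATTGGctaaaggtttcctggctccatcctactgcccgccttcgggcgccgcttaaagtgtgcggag
Cbs, chr17:31637206-31637455, minus strand: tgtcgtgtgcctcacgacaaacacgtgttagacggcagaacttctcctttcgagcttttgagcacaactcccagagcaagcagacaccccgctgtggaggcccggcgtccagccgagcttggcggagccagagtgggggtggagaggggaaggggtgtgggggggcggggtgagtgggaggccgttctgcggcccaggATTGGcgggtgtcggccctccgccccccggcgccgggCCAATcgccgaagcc
The Gldc window held 1 CCAAT box, 66 bases before the start site on the opposite strand. The Cbs window held 2, at 15 bases on the same strand and 52 bases on the opposite strand, and neither window held any of the 3 hexamers. Over all members, 28 of 37 had a promoter entry. Among those 28, AGTTCA was found in 5 (17.9%, against 11.8% of 32841 promoters of the same length), AGGTCA in 13 (46.4% against 14.0%), AGAACA in 3 (10.7% against 16.1%) and CCAAT in 13 (46.4% against 33.9%). The 32841 promoters were not limited to genes expressed in liver, so these shares do not show a motif to be particular to the members. They were not tested. A match of 5 or 6 letters is a description of the window and not a binding site.

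In WT mice, PCN raised Acmsd and Asl and lowered Cbs, and most of the 37 genes moved little. Acmsd, which steers a tryptophan intermediate away from NAD synthesis, rose 2.30-fold. Asl, the argininosuccinate lyase of the urea cycle, rose 1.5-fold on the probe read, at the limit of the call. A second Asl probe did not rise (-0.24 log2, adjusted p = 0.485). Cbs, which joins homocysteine and serine at the entry to transsulfuration, fell with a fold of 1.78. The 2 called rises compare with 3.38% of all probes called higher, and the 1 called fall with 2.13% called lower. At any fold, 2 members were higher (11.0% of all probes) and 8 lower (12.0% of all probes). Fitted changes lay between -0.83 and 1.20 log2 and 33 of 37 were within 0.5 log2 of 0. The median change was -0.09 with 15 members higher and 22 lower, against a median of -0.02 and 45.7% higher over all probes.

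The balance of small changes depended on how arrays were scaled. The 2 higher and 8 lower members at any fold became 4 and 3 with processed signals scaled to the 75th percentile, 5 and 3 with median scaling, and 7 and 1 with the deposited log2 values. Those that passed as higher in the deposited values but not here were Gpt (0.45), Gldc (0.84), Bckdhb (0.31), Gnmt (0.51) and Cth (0.66), of which Gldc and Cth were called. In the deposited values the median of all probes was itself shifted by 0.11 in this contrast, the median of the members was 0.12, and 19 of 37 members lay above the median of all probes. Over all probes, 61.3% of calls in WT mice were rises with the scaling used here and 84.4% in the deposited values. The corresponding shares were 63.9% and 75.6% in Pxr-/- mice, 76.7% and 88.8% for the difference between genotypes, and 77.0% and 47.0% between the control groups.

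In Pxr-/- mice, PCN lowered Gls2 and Gldc, and no member was called higher. Gls2, the liver glutaminase that releases ammonia from glutamine, fell by 0.76 log2, and Gldc, the decarboxylase of the glycine cleavage system, fell by 0.90. The 0 called rises compare with 1.23% of all probes and the 2 called falls with 0.698%. At any fold 2 members were higher (3.04% of all probes) and 3 lower (3.27% of all probes). The median change was -0.10, with 14 members higher and 23 lower, against -0.01 over all probes. Both calls were lost in some settings. With each washing batch fitted alone no member passed, and without Pxr-/- PCN replicate 4 neither gene did (Gls2 -0.63, adjusted p = 0.0575, and Gldc -0.87, adjusted p = 0.0732). Calls over all 32087 probes fell as well, from 396 higher and 224 lower. They were 50 and 21 in batch 1, 65 and 55 in batch 2, and 271 and 144 without Pxr-/- PCN replicate 4.

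The PCN effect differed between genotypes for Gldc, the 1 member called in that contrast as higher in WT mice (0.676% of all probes), and no member was called lower (0.206%). At any fold 1 member, Gldc, was higher (0.898% of all probes) and 1 member, Glud1, was lower (0.446%). The median difference over the members was -0.04 against -0.01 over all probes. The effects of PCN on Acmsd, Asl and Cbs were not shown to differ between genotypes, with adjusted p-values of 0.127, 0.146 and 0.142.

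**Figure D1:**
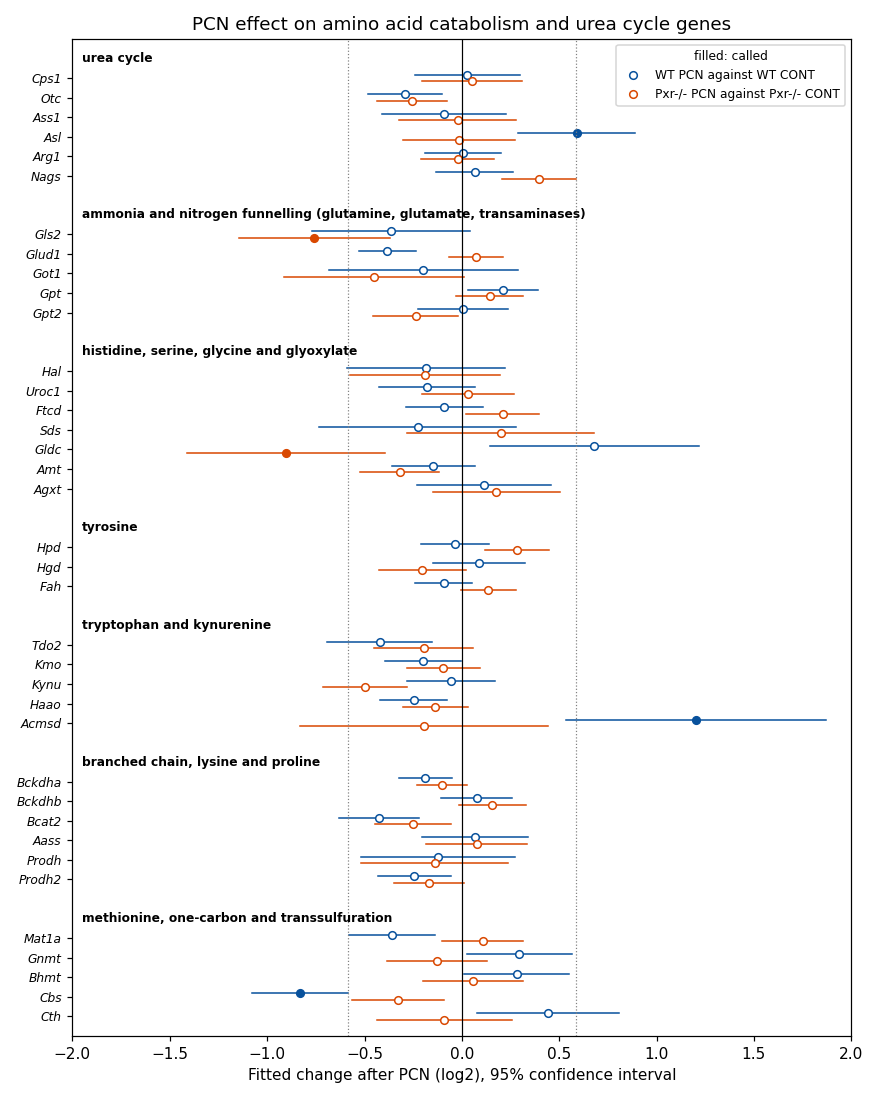
Fitted change after PCN (log2, horizontal axis) of the 37 genes, grouped by role, in WT mice (blue) and Pxr-/- mice (orange). Points are limma estimates, lines are 95% confidence intervals, filled points are called genes and dotted lines mark a fold change of 1.5. Most points lie within 0.5 log2 of 0, Acmsd at 1.20 is the farthest right in WT mice and Gldc at -0.90 the farthest left in Pxr-/- mice.

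Of the urea cycle, Asl alone was called. Its log2 signal was lowest at 13.28, median 13.71 and highest at 14.24 in WT CONT, and 13.74, 14.24, 14.33, 14.52 and 14.65 in the 5 WT PCN mice. It ran from 13.78 through a median of 14.24 to 14.35 in Pxr-/- CONT and from 13.90 through 14.15 to 14.35 in Pxr-/- PCN. The WT groups overlapped through WT PCN replicate 4, the lowest of its group, and the Pxr-/- groups lay on top of each other. The change was 0.59 ± 0.15 in WT mice (adjusted p = 0.00546) and -0.01 ± 0.14 in Pxr-/- mice (adjusted p = 0.970), whose sign turned with the deposited values, in washing batch 1 and when Pxr-/- CONT replicate 2, 5 or 6 or Pxr-/- PCN replicate 4 or 6 was left out. The Asl probe read here lies on chromosome 5 from 130487513 to 130487736 (mm9), and a second probe at 130498273 to 130498332 was at -0.24 in WT mice (adjusted p = 0.485). The mean over both probes was at 0.18 (adjusted p = 0.482), so the 2 probes of Asl disagree. The call was also lost, with changes of 0.48 to 0.58 that stayed under the limit of fold, when WT CONT replicate 6 or WT PCN replicate 1, 2, 3 or 5 was left out.

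The other urea cycle genes changed less. Otc, the ornithine transcarbamylase that makes citrulline, fell by 0.29 in WT mice (adjusted p = 0.0234) and was at -0.26 in Pxr-/- mice (adjusted p = 0.0787). With the deposited values the Otc change in WT mice was -0.06 (adjusted p = 0.715). A dimmer Otc probe was at 0.15 in WT mice (adjusted p = 0.516), opposite in sign. With the mean of both Otc probes the fall did not pass the adjusted p. Nags, whose product N-acetylglutamate switches on the cycle, rose by 0.40 in Pxr-/- mice (adjusted p = 0.0123) and was at 0.07 in WT mice, a difference between genotypes of -0.33 with adjusted p = 0.241. Cps1, the entry enzyme that Nags controls, was at 0.03 in WT and 0.05 in Pxr-/- mice. Ass1, which joins citrulline and aspartate, was at -0.09 and -0.02, and Arg1, the arginase that releases urea, at 0.00 and -0.02. None of these 3 passed the test in either genotype.

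**Figure D2:**
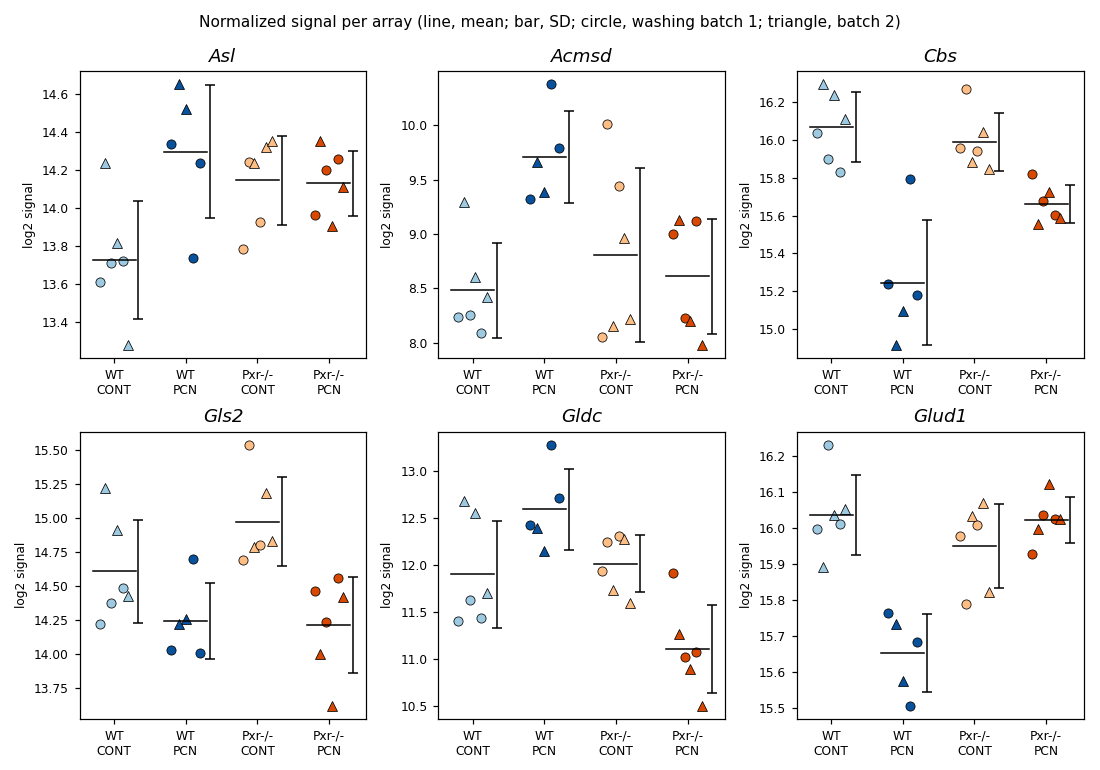
Normalized log2 signal (vertical axis, a separate scale per gene) of the 5 called members and of Glud1 on every array, by group. Lines are group means, bars are SD, circles are washing batch 1 and triangles batch 2. Glud1 is lower on all WT PCN arrays than on any WT CONT array, and Gldc spans 10.50 to 11.91 in Pxr-/- PCN mice.

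Among the genes that move nitrogen through glutamine and glutamate, Gls2 fell in Pxr-/- mice and Glud1 fell in WT mice. Gls2 signals ran from 14.69 through a median of 14.82 to 15.54 in Pxr-/- CONT and from 13.61 through 14.33 to 14.55 in Pxr-/- PCN, and these groups did not overlap. In WT CONT they ran from 14.22 through 14.45 to 15.22, and the 5 WT PCN mice had 14.00, 14.03, 14.22, 14.26 and 14.70. The WT groups overlapped. The change was -0.76 ± 0.19 in Pxr-/- mice (adjusted p = 0.0182) and -0.36 ± 0.20 in WT mice (adjusted p = 0.194), and the difference between them was 0.39 (95% interval -0.17 to 0.96). A second Gls2 probe changed by -0.55 in Pxr-/- mice (adjusted p = 0.0407).

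Glud1, the mitochondrial glutamate dehydrogenase that frees ammonia from glutamate, had signals of 15.89 to 16.23 in WT CONT (median 16.02). The WT PCN mice had 15.51, 15.58, 15.68, 15.73 and 15.76, all below the controls. Pxr-/- CONT ranged from 15.79 to 16.07 (median 15.99) and Pxr-/- PCN from 15.93 to 16.12 (median 16.02), with overlap. Glud1 fell by 0.38 ± 0.07 in WT mice (adjusted p = 0.00054), with a fold of 1.30 under the limit of a call, and was at 0.07 ± 0.07 in Pxr-/- mice (adjusted p = 0.585). The difference between genotypes was -0.45 ± 0.10 (adjusted p = 0.0159), and it was -0.25 with adjusted p = 0.446 in the deposited values. The fall in WT mice was -0.14 there (adjusted p = 0.330). Its other probes, both dimmer, were at -0.15 (adjusted p = 0.408) and -0.28 (adjusted p = 0.108) in WT mice.

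The brightest probes of the transaminases Gpt, Gpt2 and Got1 did not pass the test. Gpt, alanine aminotransferase, was at 0.21 in WT mice (adjusted p = 0.0854) and 0.14 in Pxr-/- mice, and its mitochondrial relative Gpt2 at 0.01 and -0.24. A dimmer Gpt probe rose by 0.58 in WT mice (adjusted p = 0.000454), under the limit of fold, so the 2 Gpt probes differ in passing the adjusted p and neither was called. Got1, the cytosolic aspartate aminotransferase, was at -0.20 and -0.45 and varied widely between mice, with a pooled SD of 0.41 within groups.

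Of the genes for histidine, serine, glycine and glyoxylate, Gldc was the only one called in any contrast. Its WT CONT signals were 11.41 at the lowest, 11.67 in the median and 12.68 at the highest, and the WT PCN mice had 12.15, 12.39, 12.42, 12.71 and 13.28. Pxr-/- CONT ranged from 11.60 to 12.30 (median 12.09) and Pxr-/- PCN from 10.50 to 11.91 (median 11.05). The WT groups overlapped because WT CONT replicates 2 and 4 were high, and in Pxr-/- mice 5 of 6 treated animals lay below every control. Gldc was at 0.68 ± 0.26 in WT mice (adjusted p = 0.0618) and fell by 0.90 ± 0.25 in Pxr-/- mice (adjusted p = 0.0308), so that the effects differed by 1.58 ± 0.36 (2.99-fold, 95% interval 0.84 to 2.32, adjusted p = 0.0236).

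The Gldc changes had opposite signs in the 2 genotypes, and the change in WT mice varied with batch and scaling. With the deposited values it was 0.84 and was called (adjusted p = 0.0243). Within washing batch 1 the WT change was 1.31 (adjusted p = 0.0068) and within batch 2 it was -0.04 (adjusted p = 0.949). In Pxr-/- mice the change was -0.83 in batch 1 and -0.98 in batch 2, with adjusted p-values of 0.194 and 0.132. The difference between genotypes was 2.14 in batch 1 (adjusted p = 0.0274) and 0.94 in batch 2 (adjusted p = 0.335). Leaving out WT PCN replicate 4 gave 1.42 with adjusted p = 0.0486, and leaving out both replicate 4 PCN arrays 1.38 with adjusted p = 0.0793. The probe read lies on chromosome 19 from 30172983 to 30173042 (mm9), and the other Gldc probe gave 0.81 (adjusted p = 0.495), with the same sign. With the mean of both Gldc probes the difference between genotypes did not pass the adjusted p.

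Amt, the aminomethyltransferase that works with Gldc in glycine cleavage, was at -0.15 in WT mice (adjusted p = 0.338) and -0.32 in Pxr-/- mice (adjusted p = 0.0547). Hal, Uroc1 and Ftcd act in turn on histidine. Hal was at -0.18 in WT and -0.19 in Pxr-/- mice, Uroc1 at -0.18 and 0.03, and Ftcd at -0.09 and 0.21, and none passed, though a dimmer Hal probe fell by 0.56 in WT mice (adjusted p = 0.0396). Sds, the serine dehydratase known for its rise in fasting, was at -0.23 and 0.20 with a pooled SD of 0.44. Agxt, which detoxifies glyoxylate in peroxisomes, was at 0.12 and 0.18.

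Tyrosine breakdown was little changed. Hpd, which forms homogentisate, rose by 0.28 in Pxr-/- mice (adjusted p = 0.0364) and was at -0.04 in WT mice, and the difference of -0.32 had adjusted p = 0.192. The Hpd result was lost in 9 of the 23 fits that left out 1 array and with the deposited values (adjusted p = 0.0998). Hgd, which opens the homogentisate ring, was at 0.09 and -0.20, and Fah, which performs the final cleavage, at -0.09 and 0.14.

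In the tryptophan and kynurenine route Acmsd rose in WT mice, while the other 4 enzymes had changes of -0.42 to -0.06. Acmsd signals were 8.09 at the lowest, 8.34 in the median and 9.30 at the highest in WT CONT. The WT PCN mice had 9.32, 9.38, 9.66, 9.79 and 10.38, all above the controls. Pxr-/- CONT spread from 8.05 through 8.59 to 10.01 and Pxr-/- PCN from 7.98 through 8.62 to 9.13. The WT groups were thus apart by a narrow gap and the Pxr-/- groups overlapped, with 2 high Pxr-/- CONT mice (replicates 2 and 4). The change was 1.20 ± 0.32 in WT mice (adjusted p = 0.00955) and -0.19 ± 0.31 in Pxr-/- mice (adjusted p = 0.774), a difference of 1.40 ± 0.44 with a 95% interval of 0.48 to 2.32. In WT mice Acmsd changed by 1.64 within washing batch 1 (adjusted p = 0.0289) and was at 0.75 within batch 2 (adjusted p = 0.243). The probe, the 1 Acmsd probe of the array, lies on chromosome 1 from 129664080 to 129664139 (mm9).

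Tdo2, the hepatic dioxygenase that opens the tryptophan ring, fell by 0.42 in WT mice (adjusted p = 0.0214) and was at -0.20 in Pxr-/- mice. Without WT PCN replicate 4 its WT change was -0.35 with adjusted p = 0.0657. Haao, which makes the intermediate on which Acmsd acts, fell by 0.25 in WT mice (adjusted p = 0.0358), but its sign turned to 0.01 in the deposited values. Kynu, the kynureninase, was at -0.06 in WT mice (adjusted p = 0.757) and fell by 0.50 in Pxr-/- mice (adjusted p = 0.00676), with signals from 11.54 to 11.97 in Pxr-/- CONT and from 10.73 to 11.56 in Pxr-/- PCN, which overlapped. A dimmer Kynu probe also fell in Pxr-/- mice, by 0.35 (adjusted p = 0.0226), and its difference between genotypes of 0.58 passed (adjusted p = 0.0219), whereas that of the brightest probe was 0.44 (adjusted p = 0.159). Kmo, the monooxygenase before it, was at -0.20 and -0.10 and did not pass.

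Branched chain, lysine and proline genes showed small changes without a call. Bcat2, the mitochondrial branched chain aminotransferase, which hepatocytes express at low levels, fell by 0.43 in WT mice (adjusted p = 0.00368) and was at -0.25 in Pxr-/- mice (adjusted p = 0.116). Its signals were 8.68 to 8.91 in WT CONT and 8.08 to 8.73 in WT PCN, with overlap. A dimmer Bcat2 probe was at -0.14 in WT mice (adjusted p = 0.184). With the deposited values the Bcat2 change in WT mice was -0.28 (adjusted p = 0.0805). Bckdha, a subunit of the branched chain keto acid dehydrogenase, fell by 0.19 in WT mice (adjusted p = 0.0423), and the sign turned to 0.06 in the deposited values. Bckdhb, the partner subunit, was at 0.08. Aass, which begins lysine breakdown, was at 0.07 (a dimmer probe rose by 0.40, adjusted p = 0.0336), Prodh, the proline dehydrogenase, at -0.12, and Prodh2, the hydroxyproline dehydrogenase, at -0.24 (adjusted p = 0.0553). No gene of this group passed in Pxr-/- mice, where changes ran from -0.25 to 0.16.

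In methionine metabolism Cbs fell in WT mice, and the genes around it moved in both directions. Cbs signals ran from 15.83 through a median of 16.07 to 16.30 in WT CONT, and the WT PCN mice had 14.92, 15.09, 15.18, 15.24 and 15.79. Pxr-/- CONT ran from 15.85 through 15.95 to 16.27 and Pxr-/- PCN from 15.55 through 15.64 to 15.82. The groups did not overlap in either genotype, and the highest WT PCN mouse was replicate 4. Cbs changed by -0.83 ± 0.12 in WT mice (adjusted p = 5.27e-05) and was at -0.33 ± 0.11 in Pxr-/- mice, which did not pass (adjusted p = 0.0869, or 0.0291 when WT PCN replicate 4 was left out). The difference of -0.50 ± 0.16 missed the threshold (adjusted p = 0.142). It was -0.63 with adjusted p = 0.0149 when WT PCN replicate 4 was left out, and the count of members called in that contrast then went from 1 to 2. Within washing batch 2 it was -0.91 (adjusted p = 0.0338) and without both replicate 4 PCN arrays -0.62 (adjusted p = 0.0299), and in each of these fits Cbs was the 1 member called and Gldc was not. Within batch 1 it was -0.16 (adjusted p = 0.801). With the deposited values the WT fall was -0.57 (adjusted p = 0.00276), under the limit of fold. The Cbs probe lies on chromosome 17 from 31749593 to 31749652 (mm9).

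Mat1a, the liver enzyme that makes S-adenosylmethionine, fell by 0.36 in WT mice (adjusted p = 0.0181) and was at 0.11 in Pxr-/- mice. Without WT PCN replicate 4 its WT change was -0.31 (adjusted p = 0.0546). Gnmt, which consumes S-adenosylmethionine, was at 0.30 in WT mice (adjusted p = 0.108), and Bhmt, which remethylates homocysteine with betaine, at 0.28 (adjusted p = 0.125). Cth, the enzyme after Cbs that yields cysteine, was at 0.44 (adjusted p = 0.073) in WT mice, opposite in sign to Cbs, and at -0.09 in Pxr-/- mice. The deposited values gave a called rise of Cth in WT mice (adjusted p = 0.0196), and Cth passed the adjusted p under the limit of fold with processed signals, median scaling, normexp background correction and the fit of only the groups compared.

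**Figure D3:**
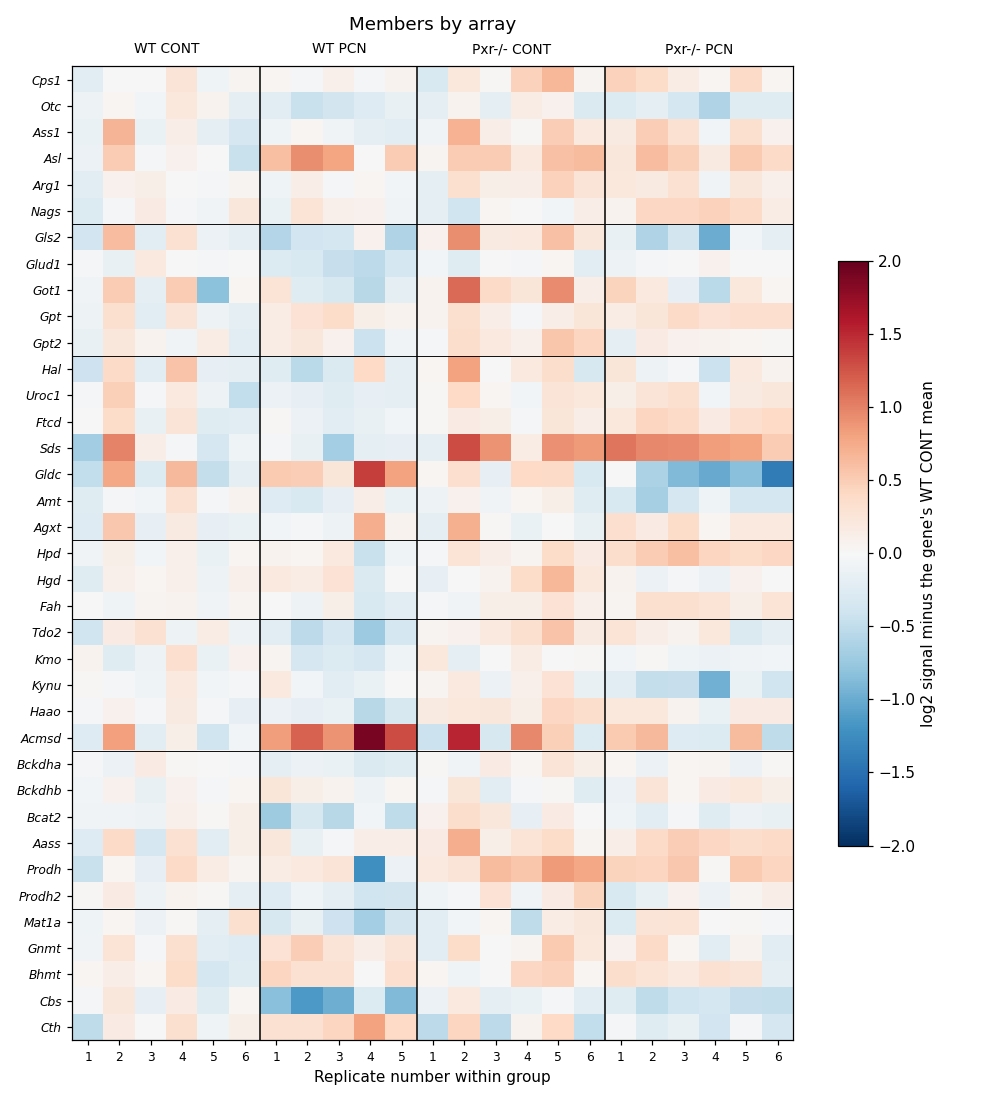
Log2 signal of each of the 37 genes (rows, ordered by role) on each of the 23 arrays (columns, by group and replicate number), minus the mean of the gene in WT CONT mice. Red is above and blue below that mean, and the extremes are Acmsd in WT PCN replicate 4 at 1.89 and Gldc in Pxr-/- PCN replicate 6 at -1.40.

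Members had a median pooled SD within groups of 0.20, against 0.18 over all probes tested. Members were read on their brightest probes, unlike the probes as a whole, and the gap was not tested. Acmsd (0.57), Gldc (0.45), Sds (0.44), Got1 (0.41) and Prodh (0.36) varied most, and Bckdha (0.09), Glud1 (0.10) and Fah (0.12) least. WT PCN replicate 4 had the highest Acmsd, Gldc, Agxt, Cth, Cbs and Gls2 of its group and the lowest Asl, Prodh and Bhmt. Without WT PCN replicate 4 the WT calls remained Asl, Acmsd and Cbs, and 6 members passed at any fold in place of 10. Pxr-/- PCN replicate 4 was the lowest of its group in 19 members. Pxr-/- CONT replicate 2 was the highest of its group in 14 members, Acmsd, Gls2 and Agxt among them.

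In mice given corn oil alone, loss of Pxr called no member in limma. The 0 called higher compare with 0.209% of all probes and the 0 called lower with 0.0623%, and at any fold the counts were 0 against 0.302% and 0 against 0.128%. The smallest adjusted p was 0.214. When WT PCN replicate 4 was left out of the fit, which enters this contrast through the shared estimate of spread, 1 member (Prodh) passed at any fold. At an unadjusted p under 0.05 there were 7 members, all higher in Pxr-/- CONT: Asl (0.42), Got1 (0.48), Gpt2 (0.27), Sds (0.65), Haao (0.25), Aass (0.29) and Prodh (0.54), against 11.3% of all probes. Of 37 members 29 were higher in Pxr-/- CONT and the median difference was 0.15, against -0.01 and 48.2% higher over all probes. In the deposited values 22 members were higher, and 29 lay above the all-probe median, which was -0.11 there.

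Related genes were read from 4 further lists, chosen with earlier results of these data known. Of 58 other breakdown enzymes kept, 2 were called higher and 1 lower in WT mice, against 3.38% and 2.13% of all probes, and their median change was 0.00 against -0.02. Hykk, the hydroxylysine kinase, fell by 1.05 in WT mice (adjusted p = 2.18e-06), with signals of 9.60 to 10.11 in WT CONT and 8.59 to 8.99 in WT PCN. It was at -0.26 in Pxr-/- mice, and the difference of -0.79 was called (adjusted p = 0.00993). Afmid, the formamidase that yields kynurenine, rose by 0.98 in WT mice (adjusted p = 1.44e-05) and by 0.65 in Pxr-/- mice (adjusted p = 0.0032). Ethe1, which oxidises the sulfide left from cysteine breakdown, rose by 0.85 in WT mice (adjusted p = 0.00945) and was at -0.10 in Pxr-/- mice.

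Of 17 transporters, Slc43a1, which carries large neutral amino acids, rose by 1.17 in WT mice (adjusted p = 0.00748) and by 1.23 in Pxr-/- mice (adjusted p = 0.0133). At any fold 1 transporter was higher and 4 were lower in WT mice (11.0% and 12.0% of all probes), among them the mitochondrial ornithine carrier Slc25a2 (-0.55, adjusted p = 0.00104). Of 8 synthesis enzymes, Pycr1, which makes proline, rose by 0.75 in Pxr-/- mice (adjusted p = 0.00846) and was at -0.13 in WT mice, a difference with adjusted p = 0.0676.

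Of 11 regulators, 1 was called higher and 3 lower in WT mice (3.38% and 2.13% of all probes), and the median change was -0.42 against -0.02 over all probes. The list was chosen with earlier results of these data known, so these values describe it and test nothing. Ppargc1a, a coactivator of the fasting response, fell by 1.20 in WT mice (adjusted p = 9.88e-05) and by 0.96 in Pxr-/- mice (adjusted p = 0.0031). Its signals ran from 8.57 to 9.87 in WT CONT and from 7.63 to 8.04 in WT PCN, and from 9.18 to 9.77 in Pxr-/- CONT and from 7.94 to 8.88 in Pxr-/- PCN, without overlap in either genotype. Klf15, a transcription factor known to drive amino acid breakdown, fell by 0.87 in WT mice (adjusted p = 0.000992) and by 0.56 in Pxr-/- mice (adjusted p = 0.0427). Cebpa, which is required for urea cycle gene expression, fell by 0.72 in WT mice (adjusted p = 0.000201), whereas Cebpb, its relative of the acute response, rose by 0.68 (adjusted p = 0.0122). In Pxr-/- mice Cebpa was at -0.37 and Cebpb at 0.30, and neither passed. None of the 4 regulators was shown to differ between genotypes by the test of the difference (adjusted p-values of 0.732, 0.601, 0.322 and 0.539).

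**Figure D4:**
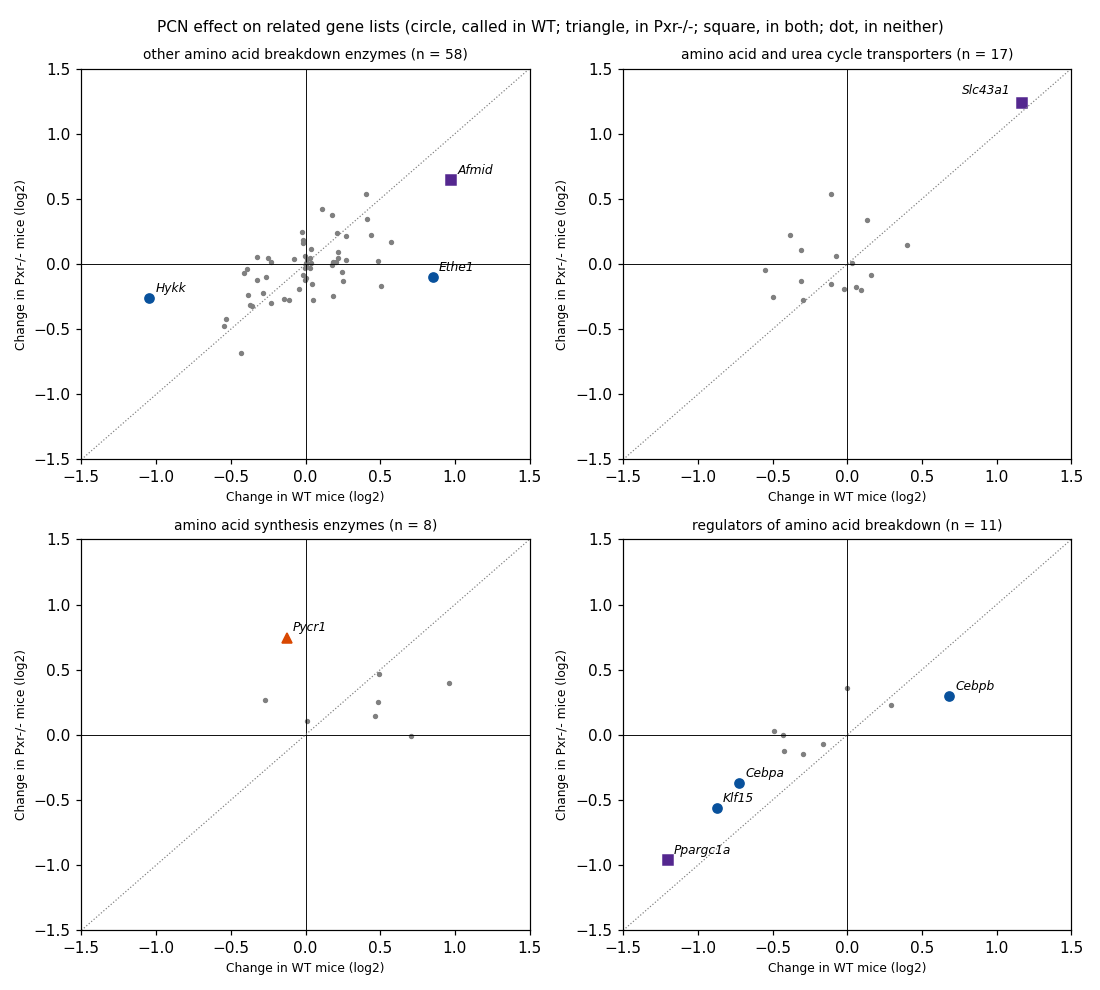
Change after PCN in WT mice (log2, horizontal) against Pxr-/- mice (log2, vertical) for the genes of 4 related lists, each in its own panel, with the dotted line marking equal changes. Named points were called in at least 1 genotype: Ppargc1a, Afmid and Slc43a1 in both, Hykk, Ethe1, Klf15, Cebpa and Cebpb in WT mice and Pycr1 in Pxr-/- mice.

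Of the marker genes of liver cell types, those called after PCN were Col1a1, Col3a1, Sox9 and Apoa1. Col1a1 and Col3a1 of the stellate cell list rose in WT mice (3.17 and 2.18 log2) and in Pxr-/- mice (1.96 and 1.22). The other 5 stellate markers were between -0.47 and 0.41 in WT mice and between 0.01 and 0.12 in Pxr-/- mice, and none passed. The cholangiocyte marker Sox9 rose by 0.76 in WT mice (adjusted p = 0.0109), and the hepatocyte marker Apoa1 rose by 0.62 in Pxr-/- mice (adjusted p = 0.000955). The 5 cholangiocyte markers kept of 6 summed to normalized signals of 1443 to 4689 in WT CONT, 3274 to 7976 in WT PCN, 1779 to 3327 in Pxr-/- CONT and 2247 to 5839 in Pxr-/- PCN, which overlapped. All 7 listed stellate markers were kept, and their summed signal was 21216 to 35805 in WT CONT, 28434 to 39349 in WT PCN, 18221 to 30304 in Pxr-/- CONT and 18967 to 38098 in Pxr-/- PCN. Their part in the changes of Acmsd, Asl, Cbs, Gls2 and Gldc was not tested.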

How the data were processed

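Agilent 1-colour arrays of 23 livers were analysed. Per the file headers, the deposited scanner files (Agilent Feature Extraction 10.10.1.1) hold linear spot intensity values and quality flags. The authors also deposited log2 values, which were batch-corrected and normalized with CrossNorm per the study's methods and served as an alternative. Groups, replicate numbers and washing batches came from the labels.

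Flagged spots (2225) were set to missing, log2 median signals were averaged per probe, probes had to be well above background in more than 50% of a group's arrays for at least 1 group, and arrays were quantile normalized. All arrays entered 1 fit in limma 3.58.1 (R 4.3.3) with terms for group and washing batch (18 residual degrees of freedom) and 4 contrasts, with Benjamini-Hochberg adjustment over 32087 probes. Calls needed an adjusted p of at most 0.05 and a fold change above 1.5. Because of the batch term, fitted changes can differ slightly from differences of means. Arrays are separate mice. Their number limits the precision. In a simulation of PCN in WT mice with 50 of 32087 probes changed per size, 72% of changes of 0.6 log2 and 92% of changes of 1 log2 passed the adjusted p. These shares leave out the fold limit of a call. The simulated noise was independent between probes and had no batch effect. Far more probes passed in the data (11.0% higher and 12.0% lower), which sets another cutoff, so the shares need not hold there.

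Members and lists were chosen with earlier results of these data known. Every member is accounted for: those called in any contrast are given with values by group, the others by fitted changes, and of related lists the called genes are named (Slc25a2 was added after its values were seen). Alternatives covered background correction, scaling, the filter, the model terms, probes per gene and arrays left out. Probe coordinates are in mm9, and promoters are from RefSeq. The upstream sequence of 1 further member is not reported here.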

Additional observations from a re-analysis of the deposited data

Results flagged for a closer look

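In 148 groups of 5 or 6 mice tested over the members, 8 held a log2 signal far from the others of its group by Dixon's test, and chance alone flags about 1 in 20 groups. WT PCN replicate 4 accounted for 4 of them: Agxt was highest at 16.52, Cth was highest at 14.13, Prodh was lowest at 12.85 and Bhmt was lowest at 17.31. Sds was lowest at 12.23 in WT PCN replicate 3. Agxt was highest at 16.51 in Pxr-/- CONT replicate 2. Prodh was lowest at 14.09 in Pxr-/- PCN replicate 4, and Bhmt was lowest at 17.12 in Pxr-/- PCN replicate 6. The PCN effect differed between genotypes in the interaction test for Gldc, by 1.58 log2, and for Glud1, by -0.45 log2.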

How the results depend on the processing

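In WT mice Acmsd and Cbs kept direction under all alternatives run. Acmsd was called in 12 and Cbs in 11 of the 13 alternatives that kept all arrays or a whole washing batch. Asl was called in 7 of 13, Gls2 in 11 and Gldc in 8 in Pxr-/- mice, and the Gldc difference in 10 of 12. Reversed values were 0.0216 for Asl in Pxr-/- mice with the deposited values, 0.15 in washing batch 1 and 0.0503 without both replicate 4 PCN arrays, -0.0433 for Gldc in WT mice in batch 2, and 0.00753 for Haao and 0.0645 for Bckdha in WT mice with the deposited values.

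Members called in WT mice numbered 3, or 4 with processed signals, median scaling and the deposited values, which each added Gldc. The deposited values also called Cth and not Cbs. The number was 2 with normexp background correction, no washing batch term, the replicate block, the mean of probes and batch 1. It was 1 in batch 2 and 10 with no minimum fold. Those past the adjusted p at any fold numbered 10, or 3 in batch 1, 2 in batch 2 and 6 without both replicate 4 PCN arrays (an alternative chosen after seeing the data). Among the other alternatives that number ran from 7 with processed signals to 12 with normexp background correction. In Pxr-/- mice 2 were called, or 1 with the deposited values, with no filter, with the mean of the probes of a gene and without both replicate 4 PCN arrays, 0 in each batch alone and 5 with no minimum fold. At any fold 5 passed there, or 2 with the deposited values, 3 with no filter and 0 in each batch. That count was 4 with processed signals and no washing batch term, and 6 with the replicate block and the mean of probes. For the difference between genotypes 1 was called, or 0 with the mean of probes, 2 with no minimum fold and 2 with the replicate block. At any fold 2 passed there, or 3 with the replicate block. It was 1 with processed signals, median scaling, the deposited values, the mean of probes, each batch alone, and without both replicate 4 arrays. That 1 member was Cbs in batch 2 and without both, Kynu with the mean of probes, and Gldc in the others. Between controls 0 passed, or 1 (Prodh) without both replicate 4 arrays. The median change in WT mice was 0.12 with the deposited values and 0.0151 in batch 1, and the median difference between genotypes 0.15 with the deposited values.

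With arrays left out in turn, members called ranged from 2 to 4 in WT mice, 0 to 2 in Pxr-/- mice, 1 to 2 for the difference and 0 to 0 between controls, and those at any fold from 6 to 12, 3 to 7, 2 to 3 and 0 to 1. Medians ranged from -0.13 to -0.05, -0.118 to 0.0112, -0.0776 to 0.0137 and 0.09 to 0.19. Asl in Pxr-/- mice ranged from -0.0694 to 0.0547 and Acmsd from -0.374 to 0.0393. The WT count at any fold fell to 6 without WT PCN replicate 2 or 4. The called count in Pxr-/- mice fell to 1, losing Gldc, without Pxr-/- CONT replicate 1, 2, 4 or 5 or Pxr-/- PCN replicate 3 or 6, and to 0 without Pxr-/- PCN replicate 4, and the count at any fold fell to 3 without Pxr-/- CONT replicate 1 or 4 or Pxr-/- PCN replicate 3 or 4. Without WT PCN replicate 4 the called count for the difference was 2 and the count at any fold between controls 1. The cause was not tested.

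Same-numbered mice of different groups were not treated as pairs in the main fit. Correlations of their deviations ran from -0.13 to 0.61 and 11 of 22 were over 0.1. Between the control groups they were 0.27, 0.61, 0.34, 0.28, 0.01 and -0.04 for replicates 1 to 6. Differently numbered mice were not compared, so whether mice of 1 replicate number share more than others was not tested. With the replicate block, 2 members were called in WT mice (Asl at 0.55 fell under the fold limit), 2 in Pxr-/- mice and 2 for the difference (Gldc and Acmsd, the latter at 1.33, adjusted p = 0.0497). The difference between genotypes could not be fitted with only the groups compared, since it uses all of them. A washing batch holds 2 or 3 arrays a group, which limits fits within it.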
